A study of Mus musculus with 8 samples.

Results

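The 46 genes described here encode the keratins, cell junctions, cornified envelope and shedding enzymes of stratified skin. They were named from their known roles after earlier results of the same arrays had shown high keratin signals on 1 array, KO day 6 replicate 2, so the pattern of that array chose them and is given as a description. Of the 46, 44 had a probe set among the 18194 genes named on the arrays, and Dsg3 and Flg2 had none. The members fall into 3 arms: 11 measured genes of the basal layer and its junctions, 4 stress keratins, and 29 genes of the upper layers.

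RNA came from whole tumours grown under the skin of C57BL/6 hosts from the injected line MOPC, a carcinoma of the mouse oropharynx. Hosts were either wild type (WT) or lacked the endosomal Toll-like receptors 3, 7 and 9 (Tlr3/7/9-/-, KO), in all host cells, while the injected cells were wild type for them in every group. Tumours were taken 4 or 6 days after injection, with 2 arrays for each genotype at each day, 8 in all. Host age is not given in the labels, and the tumours of day 6 came from separate mice. For day 4 the sources used here do not say whether the replicates did, so p-values measure the spread between these samples, which may in part be technical. In whole tumours, fewer cells of a type and less RNA per cell cannot be told apart.

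The epidermis renews itself from a basal layer, in which keratinocytes hold the keratin pair Krt5 and Krt14, attach to the basement membrane and divide under the transcription factor p63. Cells that leave this layer switch to Krt1 and Krt10, then cross-link loricrin, involucrin and small proline-rich proteins into the cornified envelope, and are shed when kallikreins cut the last junctions. Squamous carcinoma cells often keep the basal keratins and desmosomes, whereas the cornified layer marks fully differentiated skin. Krt6, Krt16 and Krt17 are scarce in resting skin and are made by keratinocytes after wounding and in tumours.

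Promoters of 7 members are shown, taken from the basal and upper layer arms and from the patterns below. They are the basal pair, 4 genes of the upper layers that were highest on KO day 6 replicate 2, and Sprr1a, which was not. Each line gives the 100 bases before the RefSeq transcription start (assembly GRCm38.p6), 5′ to 3′ on the strand of the gene, with the TATA box letters TATAAA and the AP-1 letters TGANTCA in capitals.
Krt5 (chr15:101712906-101713005, minus strand): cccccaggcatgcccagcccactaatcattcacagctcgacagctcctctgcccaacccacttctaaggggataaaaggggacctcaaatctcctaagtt
Krt14 (chr11:100206031-100206130, minus strand): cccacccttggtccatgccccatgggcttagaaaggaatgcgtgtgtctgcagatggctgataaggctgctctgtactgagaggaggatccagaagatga
Krt77 (chr15:101869706-101869805, minus strand): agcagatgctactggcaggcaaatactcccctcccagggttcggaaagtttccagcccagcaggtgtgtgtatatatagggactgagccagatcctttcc
Krt10 (chr11:99389365-99389464, minus strand): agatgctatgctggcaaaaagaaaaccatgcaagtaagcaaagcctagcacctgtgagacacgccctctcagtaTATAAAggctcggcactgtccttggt
Lor (chr3:92083143-92083242, minus strand): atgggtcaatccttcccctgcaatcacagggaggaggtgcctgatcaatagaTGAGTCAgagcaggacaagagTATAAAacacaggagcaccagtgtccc
Krtdap (chr7:30787805-30787904, plus strand): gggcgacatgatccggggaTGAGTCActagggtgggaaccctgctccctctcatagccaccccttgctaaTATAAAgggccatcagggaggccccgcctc
Sprr1a (chr3:92485882-92485981, minus strand): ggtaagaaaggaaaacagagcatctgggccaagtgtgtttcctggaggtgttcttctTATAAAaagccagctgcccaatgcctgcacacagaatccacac
TATAAA began 26 bases before the start of Krt10, 27 before that of Lor, 30 before that of Krtdap and 43 before that of Sprr1a. TGANTCA, the letters read by AP-1 factors and the same on both strands apart from N, began 48 bases before the start of Lor and 81 before that of Krtdap. Windows of 300 bases, 250 before and 50 after the start, were held for 29 of the 46 members. In them TATAAA, searched on the strand of the gene, lay in 9 of 29 members against 9.77% of 27025 genes. TGANTCA lay in 9 of 29 members against 8.97%, and CACACCC, letters bound by KLF factors and searched on both strands, in 6 of 29 against 9.05%. All members with TATAAA or TGANTCA belonged to the upper layer arm (9 of 24 for each). Windows were held for 0 stress keratins and 5 basal and junction members, and 0 of these 5 held either. At the shares over all genes, 5 windows are too few to set the arms apart. Of the 15 members with a window that were highest on KO day 6 replicate 2 by over 1 on the log2 scale, 4 held TATAAA, 4 held TGANTCA and 0 held CACACCC. These matches describe letters in a window and do not show that a factor binds there.

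The arrays were comparable in scale: the trimmed mean signal averaged 1000 over the 8 arrays and the median was 133 to 175. Within groups the rank correlation over all probe sets was 0.941 to 0.953, and the lowest of these was that of the KO tumours of day 6. Xist, which is transcribed from the inactive X, gave signals of 44.6 to 142 on the 4 arrays of day 4 and 5579 to 7121 on the 4 of day 6, so day and host sex cannot be told apart. Differences are given on the log2(signal + 16) scale, which understates changes of dim genes, and levels of different probe sets are not set against each other.

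On KO day 6 replicate 2, 24 of the 44 members were higher than on each of the other 7 arrays by over 1 on the log2 scale, against 0.726% of all 18194 genes. No member stood out to this extent on any of the other 7 arrays, on each of which 17 to 113 genes did. Krt77 and Krt1 had the widest gaps of all genes, and members made up 6 of the first 10, 11 of the first 20 and 18 of the first 50. Since this array chose the members, these counts describe it and test nothing. Across the threshold of 1, Sbsn (1.01), Sfn (1.06) and Asprv1 (1.10) lay just above, and Ivl (0.72), Krt6a (0.70) and Cnfn (0.66) just below.

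**Figure D1:**
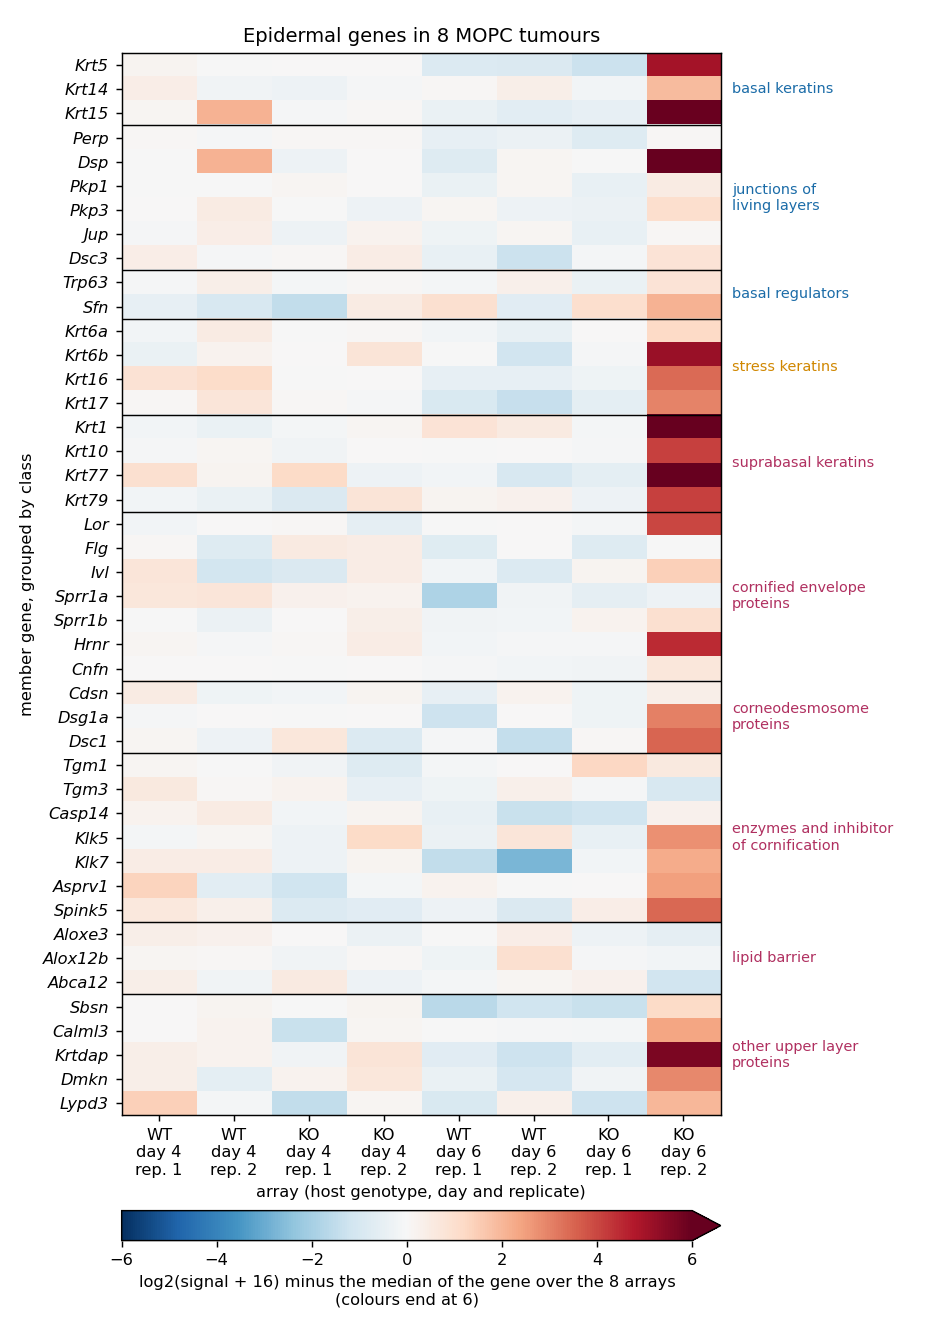
Each row is a member and each column an array, and the colour gives log2(signal + 16) minus the median of the gene over the 8 arrays, with members grouped by class. The last column, KO day 6 replicate 2, is darkest in Krt77, Krt1 and Dsp, and the lipid barrier genes are not raised there.

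Among the basal keratins, all 3 members were highest on this array. Krt5, the type II partner of the basal pair, had signals of 193 and 168 (WT) and 176 and 178 (KO) at day 4, and of 92.1 and 85.8 (WT), 62.1 (KO replicate 1) and 6009 (KO replicate 2) at day 6. The last value was 35.8-fold the median of the other 7 arrays, and the 4 tumours of day 4 all lay above the other 3 of day 6. Krt14, its type I partner, had signals of 4104 and 2727 (WT) and 2514.5 and 3001 (KO) at day 4, and of 3313 and 3986 (WT), 2834 (KO replicate 1) and 11717 (KO replicate 2) at day 6. It was thus bright in each tumour, and its difference on KO day 6 replicate 2 was 1.96 on the log2 scale against 5.03 for Krt5. Krt15, a basal keratin also known from hair follicle stem cells, had signals of 22.4 and 135 (WT) and 17.7 and 22.0 (KO) at day 4, and of 11.1 and 6.9 (WT), 9.5 (KO replicate 1) and 2138 (KO replicate 2) at day 6. Its next brightest array was WT day 4 replicate 2, and on the remaining 6 it stayed at 22.4 or below.

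Junction genes of the living layers divided. Perp, a tetraspan protein of desmosomes controlled by p63, had signals of 9559 and 8612 (WT) and 9360.2 and 9383 (KO) at day 4, and of 6457 and 6993 (WT), 5256 (KO replicate 1) and 9526 (KO replicate 2) at day 6. KO day 6 replicate 2 lay within the day 4 tumours, and the other tumours of day 6 were lower. Dsp, the plakin that ties desmosomes to keratin filaments, had signals of 47.5 and 257 (WT) and 36.6 and 48.8 (KO) at day 4, and of 21.2 and 54.0 (WT), 46.8 (KO replicate 1) and 5479.7 (KO replicate 2) at day 6. This was the largest difference among the basal and junction members, 6.44, and all 3 Dsp probe sets were highest there. Again WT day 4 replicate 2 was the second brightest. The desmosomal plaque proteins Pkp1, at 3629.9 against 1937 to 2847, and Pkp3, at 579.7 against 215 to 403, lay above the range of the other 7 arrays by less than 1. Jup (plakoglobin), which serves desmosomes and adherens junctions, lay inside that range, at 750.5 against 505.5 to 934. The desmosomal cadherin Dsc3 depended on the probe set: the brighter one gave 109.7 against 12.7 to 79.6, the other 1086.5 against 3.1 to 59.9. Only the second put the array over 1 above the rest.

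Trp63, which encodes p63, was measured at 346 to 582.5, with a median of 426, on the other 7 arrays and at 802 on KO day 6 replicate 2. None of its 4 probe sets was highest there by over 1, and in 2 of the 4 it lay below the median of the other arrays. Stratifin (Sfn), a cell cycle inhibitor of keratinocytes, was dim at 4.6 to 101.5 and reached 229.7.

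Of the 4 stress keratins, 3 were highest on KO day 6 replicate 2. Krt6b gave 1729.7 there against 5.7 to 65.2 on the other 7 arrays, and Krt17 gave 852 against 27.2 to 169. Krt16, the partner of Krt6, had signals of 214 and 255 (WT) and 109.8 and 110.3 (KO) at day 4, and of 74.5 and 74.6 (WT), 88.4 (KO replicate 1) and 1308 (KO replicate 2) at day 6. Its WT tumours of day 4 were the brightest of the other 7, and the 3 other tumours of day 6 the dimmest. Krt6a exceeded the other arrays by 0.70 (793.5 against 243 to 484), and of its 3 probe sets 1 passed the threshold of 1.

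The 4 suprabasal keratins were the class with the largest median difference on KO day 6 replicate 2, 5.41. Krt1, the first keratin of cells that leave the basal layer, had signals of 9.7 and 6.1 (WT) and 10.3 and 14.8 (KO) at day 4, and of 34.4 and 26.0 (WT), 11.0 (KO replicate 1) and 2561 (KO replicate 2) at day 6. On 7 arrays it was at 34.4 or below, and on the last it was 233-fold their median. Krt10, its partner, had signals of 528 and 599 (WT) and 468 and 548.5 (KO) at day 4, and of 547 and 559 (WT), 513 (KO replicate 1) and 9762.5 (KO replicate 2) at day 6. The other 7 tumours lay within a narrow band and KO day 6 replicate 2 was 17.9-fold their median. Krt77, a relative of Krt1, went from 7.5 to 84.6 on the other arrays to 10470.1, the largest difference of any member, 8.02. Krt79, which is found in the upper hair follicle, went from 39.0 to 153 to 1683.

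Cornified envelope proteins were uneven, with 2 of 7 measured members highest on this array. Loricrin (Lor), the main protein of the envelope, had signals of 123 and 139.8 (WT) and 145 and 90.0 (KO) at day 4, and of 137 and 138 (WT), 126 (KO replicate 1) and 2446 (KO replicate 2) at day 6. A further Lor probe set was at 2.3 to 5.6 on the other 7 arrays and at 3041 on KO day 6 replicate 2, whereas the third showed 82.1 within 45.6 to 143. Hornerin (Hrnr), a filaggrin-like protein, was at 0.8 to 9.5 and then 392. Filaggrin (Flg), at 14.6 against 2.6 to 28.9, did not stand out. Ivl (involucrin), at 118.5 against 7.3 to 65.5, and Sprr1b, at 27.4 against 1.2 to 12.2, lay above the other arrays by less than 1 and, as Flg did, below the limit for testing. Cnfn (cornifelin) reached 242 against 122 to 147.5.

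Sprr1a, a small proline-rich envelope precursor that is also induced by stress, had a pattern of its own, with signals of 2921 and 3042 (WT) and 2159 and 2144 (KO) at day 4, and of 491 and 1564 (WT), 1260.2 (KO replicate 1) and 1481 (KO replicate 2) at day 6. It was bright in every tumour, highest in the 4 tumours of day 4, and not high on KO day 6 replicate 2, where its difference from the median of the other 7 was −0.53.

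Corneodesmosomes hold the dead layers together. Their cadherins Dsg1a (527 against 12.9 to 52.5) and Dsc1 (512.5 against 1.1 to 59.6) were highest on KO day 6 replicate 2, and a second Dsc1 probe set was not (56.4 against 6.0 to 105). Corneodesmosin (Cdsn) lay within the range of the others, at 463 against 245 to 507.

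Of the 7 members that are enzymes of cornification or their inhibitor, 4 were highest on this array. The shedding proteases Klk5 (202 against 7.7 to 56.8) and Klk7 (710.2 against 7.2 to 196), their inhibitor Spink5 (335 against 1.7 to 34.3) and the filaggrin-processing protease Asprv1 (875 against 56.0 to 399) made up this set. Transglutaminase genes, whose enzymes cross-link the envelope, behaved otherwise. Tgm1 had signals of 304 and 278 (WT) and 238.5 and 156 (KO) at day 4, and of 256 and 280.0 (WT), 679.8 (KO replicate 1) and 426 (KO replicate 2) at day 6. Its brightest array was KO day 6 replicate 1, and both KO tumours of day 6 lay above all others. In its brighter probe set Tgm3 was lowest of all 8 arrays on KO day 6 replicate 2, at 52.6 against 80.1 to 189. Its second probe set was not, at 71.4 within 40.1 to 163.1. Casp14, a caspase of terminal differentiation, gave 298 against 88.5 to 345 in its brighter probe set, whereas the dimmer one gave 47.7 against 7.1 to 11.9.

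No lipid barrier member was highest there. Both epidermal lipoxygenases, Aloxe3 (89.4 against 106.5 to 187) and Alox12b (3.5 against 2.2 to 26.3), and Abca12, the lipid carrier of lamellar granules (16.7 against 41.9 to 88.5), lay below the median of the other arrays.

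Of the 5 other upper layer proteins, 4 were highest on KO day 6 replicate 2. Krtdap, a secreted protein of differentiating keratinocytes, had signals of 73.2 and 67.3 (WT) and 44.6 and 106 (KO) at day 4, and of 28 and 14.1 (WT), 30.2 (KO replicate 1) and 3600.0 (KO replicate 2) at day 6. Its neighbours on the chromosome, Dmkn (dermokine) and Sbsn (suprabasin), encode secreted proteins of the same layers. Dmkn went from 335.5 to 1125 to 5258. Sbsn had signals of 2201 and 2424 (WT) and 2174.5 and 2452 (KO) at day 4, and of 703 and 958 (WT), 846 (KO replicate 1) and 4939.5 (KO replicate 2) at day 6. It was above all others on the last array by 1.01, and the other 3 tumours of day 6 had less than any tumour of day 4. The calmodulin-like Calml3 gave 362 against 12.9 to 66.4, and Lypd3, a surface protein of suprabasal cells, 195 against 3.1 to 129.

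**Figure D2:**
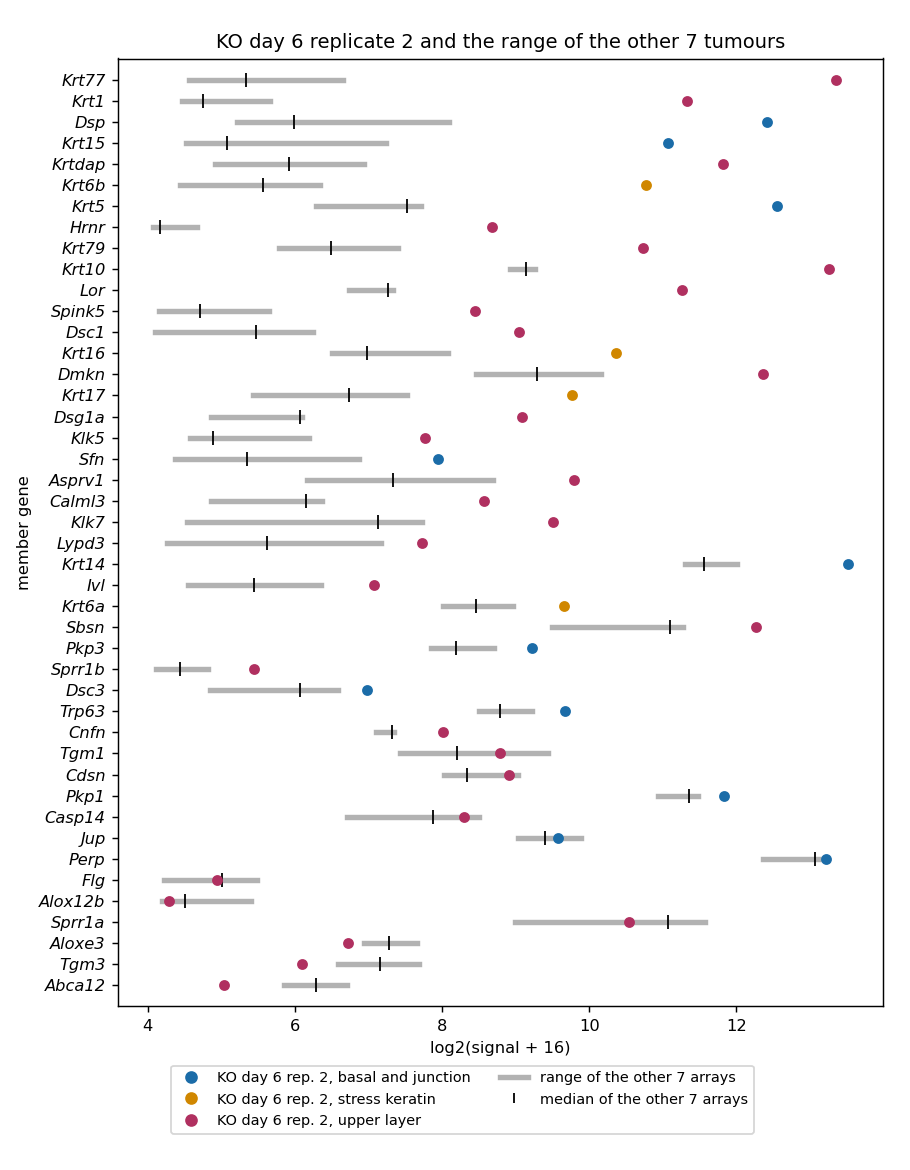
For each member the grey bar spans log2(signal + 16) of the 7 arrays other than KO day 6 replicate 2, the tick marks their median, and the coloured dot is KO day 6 replicate 2. Krt77 has the largest difference from the median (8.02) and Abca12 the lowest (−1.26), and Perp, Jup, Cdsn, Casp14 and Tgm1 lie inside their bars.

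Set side by side, 5 of 11 basal and junction members, 3 of 4 stress keratins and 16 of 29 upper layer members were highest on KO day 6 replicate 2 by over 1. The median differences of that array from the other 7 were 1.02, 3.21 and 2.37, against a median near 0 over all genes on the same array. Members were also counted by the limit for testing, which was set at the 40th percentile of the mean over probe sets. Over all arrays, 12976 of 18194 genes had a mean at or over this limit. On the other 7 arrays, 7 of 11 basal and junction members, 2 of 4 stress keratins and 13 of 29 upper layer members did. Since levels of different probe sets are not set against each other, these small counts do not set the arms apart. In the basal arm the median difference was 0.89 for the 7 that passed on those arrays and 4.29 for the 4 that did not. In the upper layer arm it was 0.70 for the 13 that passed and 2.95 for the 16 that did not. No test was made of the arms, since the array had chosen the members.

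**Figure D3:**
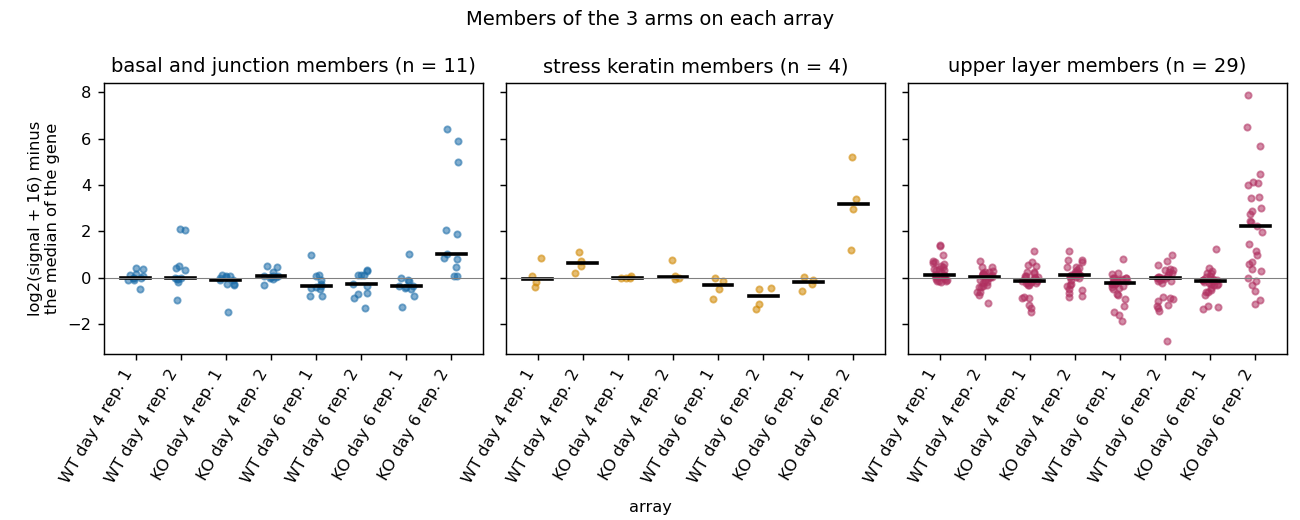
Points are members, placed by log2(signal + 16) minus the median of the gene over the 8 arrays, and black bars are medians of the arm on each array. On KO day 6 replicate 2 the medians were 1.02, 3.18 and 2.22, and on the other arrays between −0.80 and 0.61.

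Where several probe sets measured a member, they often disagreed. Of 13 such members, 2 (Dsp and Sbsn) were highest on KO day 6 replicate 2 by over 1 in each probe set, 8 in some only, and 3 (Ivl, Tgm3 and Trp63) in none.

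Genes beyond the members were read from lists of related genes. Of 40 measured other genes of the cornified layer and the epidermal differentiation complex, 15 were highest on KO day 6 replicate 2 by over 1, with a median difference of 1.03. They included Lgals7 (galectin-7), at 8096 against 29.9 to 328 on the other 7 arrays, and the late envelope gene Lce1c, at 371 against 2.2 to 24.6. The counts were 2 of 19 for other lipid barrier genes, with Elovl4, an elongase of very long fatty acids, at 1138 against 3.0 to 55.8, and 3 of 17 for epidermal transcription factors. They were 2 of 10 for hemidesmosome and basement membrane genes, with Col17a1, a collagen of hemidesmosomes, at 906 against 41.1 to 133, and 3 of 8 for sebaceous gland genes, with Elovl3 at 597 against 21.7 to 93.8. Of 29 hair follicle genes 1 was highest there (median difference −0.23), of 11 other kallikreins and proteases 1, of 15 other junction genes 1, of 8 oral mucosa genes 1, and of 9 simple epithelium genes, 9 melanocyte genes, 5 epidermal immune cell genes and 12 keratinocyte alarm genes 0.

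The chromosomal neighbours of the members were read as well. In the type II keratin cluster 5 of 6 members and 0 of 18 other measured genes were highest on KO day 6 replicate 2, and in the type I cluster 5 of 5 members and 1 of 31 others. In the epidermal differentiation complex the count was 2 of 6 members and 12 of 42 others, 8 of them Lce1 genes.

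The same array differed in tissue markers that are not epidermal. Its summed signal of 20 skeletal muscle genes was 84968, against 186612 on WT day 4 replicate 2, 36313 on KO day 4 replicate 2 and 6478 to 15172 on the other 5. WT day 4 replicate 2, with the highest muscle sum, was the brightest of the other 7 arrays for 12 members, Krt15 and Dsp among them. WT day 4 replicate 1 was so for 11 members and KO day 4 replicate 2 for 10. On WT day 4 replicate 2, Krt1 was at 6.1, the lowest of all 8 arrays. Krt10 there was at 599, the top of the narrow band of 468 to 599. Adipocyte (9 measured), dermal fibroblast (11) and leukocyte (7) genes had none that stood out on KO day 6 replicate 2, with median differences of −0.72, −0.36 and −0.30. Summed as for muscle, adipocyte genes gave 24462 there, against 8528 to 59782 on the other 7 arrays. The sums were 147482 against 143838 to 221219 for dermal fibroblast genes and 58097 against 60999 to 79469 for leukocyte genes. The part of these tissues in the keratin signals was not tested, and the pattern rests on 1 array. KO day 6 replicate 1, of the same genotype and day, had Krt5 at 62.1, Krt77 at 13.6 and Krt1 at 11.0.

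**Figure D4:**
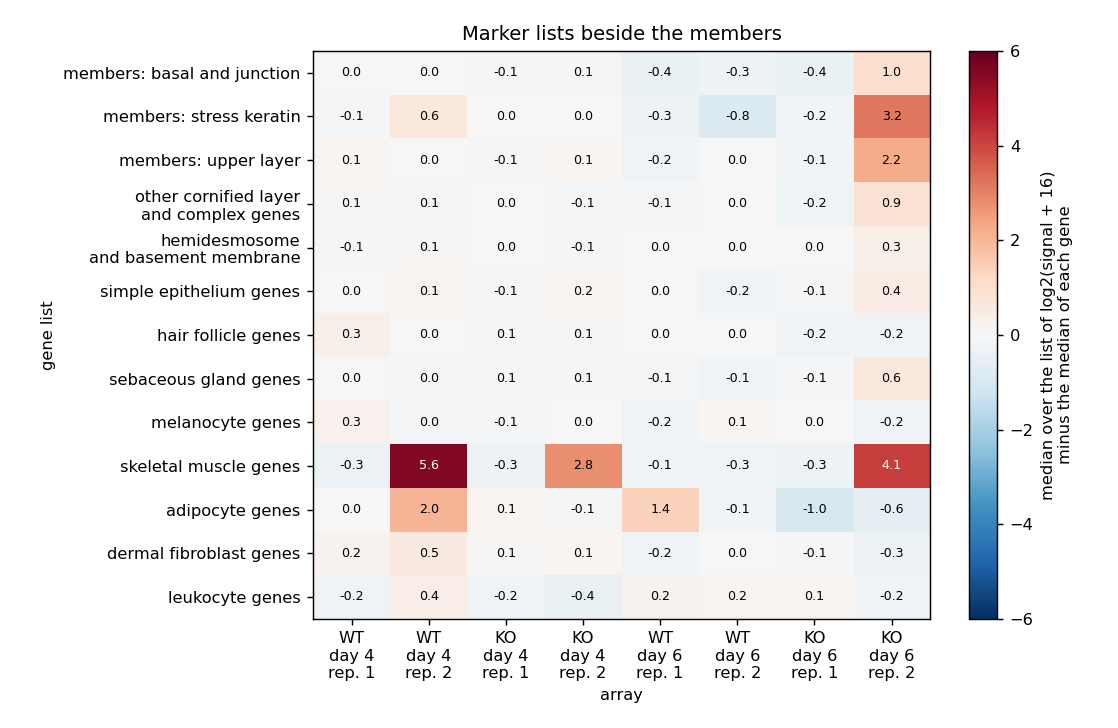
Cells give the median over a list of log2(signal + 16) minus the median of each gene over the 8 arrays, with lists in rows and arrays in columns. Upper layer members are raised on KO day 6 replicate 2 only (2.22), whereas skeletal muscle genes are raised on WT day 4 replicate 2 (5.57), KO day 6 replicate 2 (4.14) and KO day 4 replicate 2 (2.80).

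The comparison of KO with WT tumours at day 6 includes the array that chose the members, so differences of members are given there with no test and no count of calls. Over all genes, limma called 0.0154%. Of the 26 members above the limit for testing, 4 (Dsp, Krt17, Krt79 and Krtdap) reached it only through KO day 6 replicate 2, and 22 also reach it on the other 7 arrays. Among these 22, each array of the comparison was left out in turn. The difference stayed above 0 in Krt6a, Krt16, Tgm1, Klk7, Sbsn and Dmkn, and below 0 in Aloxe3 and the brighter probe set of Tgm3. The second Tgm3 probe set had its KO tumours (72.2 and 71.4) between its WT tumours (40.1 and 138.9). In the rest of the 22 it lay on either side of 0. How many of all genes kept their sign was not counted, so these names describe the arrays and test nothing. Klk7 was 3.15 higher on the log2 scale in KO tumours (1.96 to 4.33 with an array left out). Its signals were 124.4 and 710.2 in KO and 40.1 and 7.2 in WT tumours. The first KO value lay within the day 4 tumours of both genotypes (109.5 to 196.4), and both WT values lay below them. Tgm1 differed by 0.97 (0.64 to 1.29). Krt5 differed by 2.71 (−0.43 to 5.84), Krt10 by 2.0 (−0.11 to 4.10) and Lor by 1.95 (−0.11 to 4.00), with the lower end of each below 0 and reached without KO day 6 replicate 2. Day 6 against day 4 within KO tumours rests on the same array. Limma called 6.23% of all genes there, and Tgm1 differed by 1.41 (1.08 to 1.73).

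KO and WT tumours of day 4, which the choice of members did not use, asked whether the epidermal genes depended on host receptors. Among the 22 members that reach the limit for testing without KO day 6 replicate 2, limma called none with an adjusted p under 0.05. Over all genes it called 1 higher (0.00771%) and 1 lower (0.00771%). An unadjusted limma p under 0.05 was found in 0 of these 22 members and in 922 of 12976 genes. With the methods' t-test an unadjusted p under 0.05 was found in 2 of all 26 tested members and in 815 of 12976 genes. Of these 26, 4 reached the limit only through KO day 6 replicate 2. The smallest p belonged to Tgm1, at 304 and 278 in WT and 238.5 and 156 in KO tumours, a difference of −0.55 (SE 0.29, limma adjusted p = 0.787). Krt16 differed by −0.98 (SE 0.93, limma adjusted p = 0.917). Krt5, Krt14 and Krt10 differed by −0.02, −0.28 and −0.15, with standard errors of 1.54, 0.53 and 1.04 over all 8 arrays, which include the spread between the KO tumours of day 6. The members were chosen for a high value on 1 KO tumour of day 6, which widens that spread and makes limma calls less likely. The limma counts therefore cannot decide the question. With 2 arrays a group, these values do not show that the genotypes were alike.

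In WT tumours, day 6 was compared with day 4, the other comparison that the choice did not use. Of the 22 members that reach the limit for testing without KO day 6 replicate 2, limma called 1 lower and 0 higher. Of all genes, 1.66% were called lower and 4.16% higher. That member was Sprr1a, with a difference of −1.74 (SE 0.42, limma adjusted p = 0.0492). The value went from −2.56 to −0.92 with 1 array of the comparison left out, and the call held without WT day 6 replicate 2 (limma adjusted p = 0.00365) but not without any other of the 8 arrays (limma adjusted p = 0.0712 to 0.11). Klk7 had signals of 196.4 and 196.1 at day 4 and of 40.1 and 7.2 at day 6. It differed by −2.56 (SE 0.73, limma adjusted p = 0.0725), and Sbsn by −1.47 (SE 0.64, limma adjusted p = 0.19). With either KO tumour of day 6 left out, which takes the difference between these tumours out of the shared spread, both were called. Limma adjusted p was 0.0367 for Klk7 and 0.0193 for Sbsn without replicate 1, and 0.0401 and 0.0184 without replicate 2. Without replicate 1 Krt16 was called as well, and Sprr1a was called in neither fit. Krt16 differed by −1.46 and did not pass the test (limma adjusted p = 0.365). Krt17, which reached the limit only through KO day 6 replicate 2, differed by −1.53 and is given with no test. Krt14, Trp63 and Krt10 differed by 0.12, −0.03 and −0.02.

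Among the 22 members that reach the limit for testing without KO day 6 replicate 2, median differences in the same comparison were −0.23 for 7 basal and junction members, −0.97 for 2 stress keratins and −0.28 for 13 upper layer members, against 0.01 over all genes. Related lists held few calls: 0 of 23 other cornified layer genes, 1 of 9 hemidesmosome and basement membrane genes, which was Lamb3, and 2 of 6 simple epithelium genes, Krt19 lower and Cdh1 higher. All 9 tested cell cycle genes were higher at day 6, with a median of 1.28. The muscle list had a median difference of −2.62 between the same days, with its high array on WT day 4 replicate 2, and its part in the member values was not tested.

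A fit chosen after seeing the data compared the days over both genotypes without KO day 6 replicate 2, on 7 arrays. There, limma called 4 lower and 1 higher of the 22 members that reach the limit for testing on these 7 arrays. Of all genes, 6.06% were called lower and 8.32% higher. Sbsn had a difference of −1.45 (SE 0.14, limma adjusted p = 0.00285), and its other probe sets also had all 3 tumours of day 6 below all 4 of day 4. Perp differed by −0.63 (SE 0.09, limma adjusted p = 0.0105), Krt5 by −1.10 (SE 0.24, limma adjusted p = 0.0275) and Casp14 by −1.22 (SE 0.28, limma adjusted p = 0.0315). The dimmer Casp14 probe set, at 7.1 to 11.9 on these 7 arrays, had overlapping days. Tgm1 was higher at day 6 by 0.81 (SE 0.21, limma adjusted p = 0.0406), a value that rests on KO day 6 replicate 1, since its WT tumours of day 6 lay within those of day 4. Sprr1a, at −1.25, was just outside (limma adjusted p = 0.0519).

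In 7 of the 22 members that reach the limit for testing on these 7 arrays, Sbsn, Perp, Krt5, Casp14, Sprr1a, Krt16 and Cnfn, all 3 of these tumours of day 6 lay below all 4 of day 4, as they did in 13.9% of all genes tested. Of the 22, 18 had a negative difference and the median was −0.27, against −0.01 over all genes. Over the 7 arrays, the brightest was a tumour of day 4 in 38 of the 44 measured members and in 60.1% of all genes. Lower values at day 6 were not shared by all members: Krt14 differed by 0.08, Lor by 0.09 and Trp63 by −0.20, and none of these passed the test. Day and host sex cannot be told apart in these values.

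**Figure D5:**
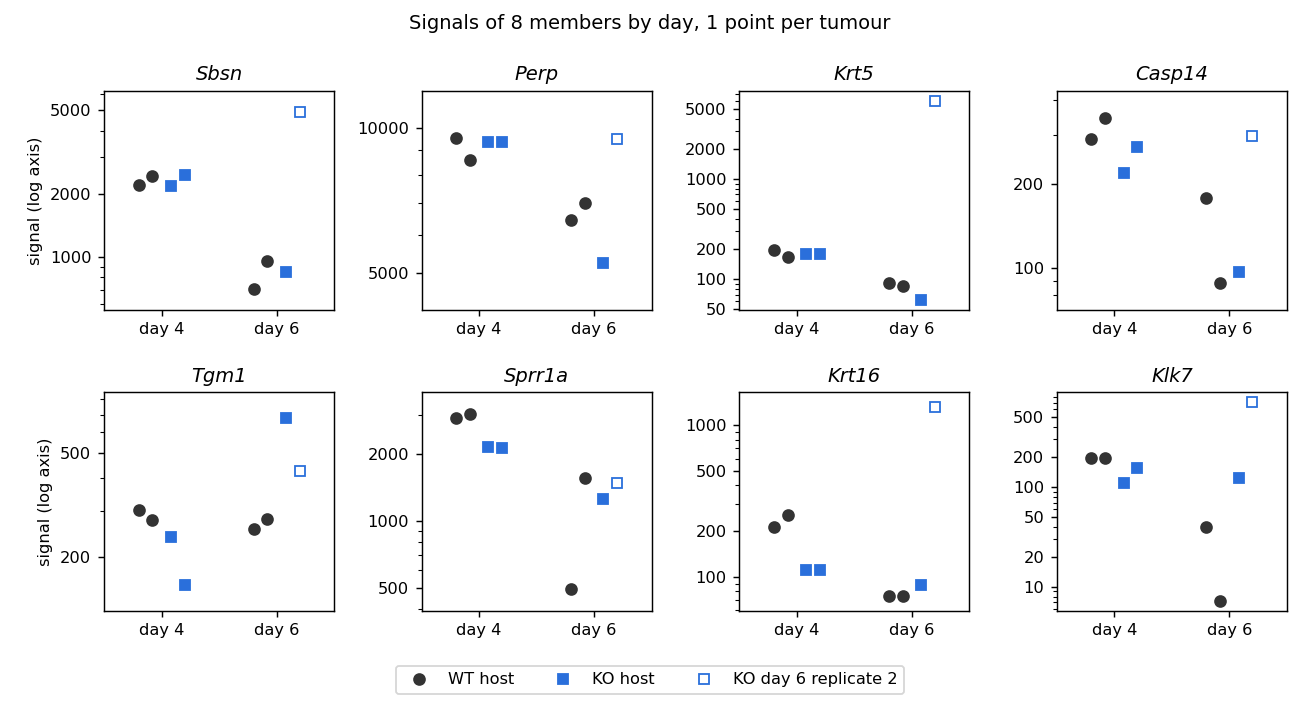
Each panel gives the signals of 1 member on a log axis, with WT hosts as circles and KO hosts as squares at day 4 and day 6, and KO day 6 replicate 2 as an open square. In Sbsn, Perp, Krt5, Casp14, Sprr1a and Krt16 the 3 filled points of day 6 lie below the 4 of day 4, whereas in Tgm1 and Klk7 the days overlap.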

How the data were processed

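Total RNA of the 8 tumours was hybridised by the authors to Affymetrix mouse arrays, and the deposited intensity values are linear signals, 1 per probe set, made with MAS5 per the submitters' processing notes, with no version given in the sources used here. Scaling by the authors was taken to be included, as the 2% trimmed mean averaged 1000 over the 8 arrays. The number of arrays limits the precision.

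Groups came from the sample labels. The 46 members, the gene lists and the tests were chosen with earlier results of these data known, and an array already known to stand apart set the main pattern. Of 45101 probe sets, 34958 had 1 gene symbol in the platform annotation, 932 had several and 9211 none, and only the first were named. Entrez identifiers matched 34754 of them to RefSeq (GRCm38.p6), and 0 symbols changed. Arrays name no build, so no probe coordinates are given. For each of 18194 genes the probe set brightest on average, by log2(signal + 16), was used. Testing took the 12976 genes that reached the 40th percentile of the mean over probe sets, 26 members among them, and left 18 members below. The fit used limma 3.58.1 (R 4.3.3) with 4 groups of 2 arrays, 4 residual degrees of freedom, a variance trend and Benjamini-Hochberg adjustment over all genes tested. Genes with an adjusted p under 0.05 were called. The script was tested on simulated data.

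The text names the 46 members, in full those highest or lowest in their class or called in a tested comparison. It names other genes by the widest gaps on KO day 6 replicate 2 or, per list, the largest differences there. Lamb3, Krt19, Cdh1 and Xist fall outside this rule and were chosen after their values were seen.

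Replicate numbers were not taken as pairs: deviations of same-numbered arrays correlated at −0.12 to 0.274 between groups, over 0.1 in 3 of 6 pairs of groups, and no label gives the numbers a meaning. Alternatives were quantile normalization, median centring, pseudocounts of 1 and 64, other filters, the mean of all probe sets, the compared groups alone, no variance trend, a replicate block, each array left out, and the methods' t-test on the same values. Detection calls were not used here.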

Additional observations from a re-analysis of the deposited data

How the results depend on the processing

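On KO day 6 replicate 2, 24 members stood highest, and 13 with only members at the 40th percentile or above (an alternative chosen after seeing the data) and 4 at the 60th, where fewer members are left. The median difference of basal and junction members (1.02) became 1.72 with a pseudocount of 64, 0.48 at the 60th percentile and 1.33 with the mean of all probe sets. That of stress keratins (3.21) became 1.20 at the 60th percentile and 2.68 with the mean of all probe sets. That of upper layer members (2.37) became 1.78 with a pseudocount of 64 and 1.18 at either percentile. No direction reversed.

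Members called in WT tumours between the days numbered 1, and 0 with no filter, with the mean of all probe sets, with the compared groups alone, with no variance trend, with the replicate block and by the methods' t-test (6 with an unadjusted p under 0.05), 0 to 3 with an array left out, and 5 over both genotypes. The 6 are counted among all 26 tested members, of which 4 reached the limit only through KO day 6 replicate 2. Beside them, 1399 of 12976 genes had an unadjusted p under 0.05 in that t-test. Over all genes, the same comparison called 756 (540 higher, 216 lower). It called 1784 with arrays centred on the median (1623 higher, 161 lower), 473 with the mean of all probe sets, 11 with the compared groups alone, 9 with no variance trend, 463 with the replicate block, 0 by the t-test, 1865 over both genotypes, and 4 to 890 with an array left out, the fewest without WT day 6 replicate 1.

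KO against WT at day 4 called 2 genes, 1 at the 60th percentile, with the compared groups alone or with no variance trend, 0 by the t-test, and 0 to 11 with an array left out. At day 6 it called 2, and 0 with a pseudocount of 1, at the 60th percentile, with the compared groups alone, with no variance trend, with the replicate block or by the t-test, and 0 to 26 with an array left out. Day 6 against day 4 in KO tumours called 809, 1342 with median centring, 523 with no filter, 398 with the mean of all probe sets, 1747 with the compared groups alone, 74 with no variance trend, 325 with the replicate block, 1 by the t-test, and 3 to 1368 with an array left out. The numbers of the block are not known to mark a shared animal or batch. The cause of these shifts was not tested.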
